A study of Homo sapiens with 26 samples.

Results

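Pool TF1 is a library of CRISPR guide RNAs against transcription factors and other DNA-binding or chromatin proteins, read out by sorting cells on myosin heavy chain (MYH). Its members are the 105 target genes named in the pool's count files, of 957 targets carried by the 10 pools of the series. They were taken as every name in the target column other than the shared control sets, which are 4 sets against PAX3 and FOXO1, the replication clamp PCNA and negative controls (written neg). MYOD1 is both a target and a shared control and was kept as a member, with 20 guides. Of the other members, 98 had 10 guides each and 6 had 4 to 9.

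The cells were RH4, an established alveolar rhabdomyosarcoma line that carries the PAX3-FOXO1 fusion, so MYH high and MYH low cells share that genotype and the same TF1 guide library. Infected cells were selected with drug and stained for MYH 7 days after infection. They were then sorted into MYH high cells, the more differentiated arm, and MYH low cells. Each arm is 1 sample of 1 cell line, so no difference within the pool has a replicate check and no test between the arms was possible. The TF1 MYH high sample held 113823697 reads and the TF1 MYH low sample 126788529, against 5548348 to 166032777 in the samples of the other 9 pools. Guide counts hold no expression values, so markers of the labelled cell type were not checked.

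As background, alveolar rhabdomyosarcoma cells express the muscle factors MYOD1 and MYOG but do not complete muscle differentiation. MYOD1 is the basic helix-loop-helix factor that commits cells to muscle, and MYOG acts after it to turn on genes of the contractile apparatus, MYH among them. In a sort of this kind, a guide is abundant in MYH high cells when the cells that carry it tend to stain strongly for MYH. Such a ratio compares the arms with each other. It holds no measure of growth, and an unsorted TF1 sample was not analysed here.

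Counts were scaled to CPM, the reads of a guide divided by all reads of its sample and multiplied by 1000000. For each guide the log2 ratio was that of CPM in MYH high cells over CPM in MYH low cells, centred on the median guide of the pool. Each target was then summarised by the median of its guides. A target is described as past the size limit at 0.3 or beyond on that scale, which is 1.23-fold. Most members stayed close to 0. The medians of the 105 members had an SD of 0.20, and 84 of them lay within 0.1 of 0 and 98 within 0.2. Past the limit, 4 members were higher in MYH high cells (3.81% of members) and 2 were lower (1.9%). The 4 were NFYC, HMGB1, SMARCE1 and NFYB, and the 2 were MYOG and MYOD1. The members nearest to the limit were NFYB at 0.34 inside it and ZNF143 at 0.20 outside it, and on the lower side MYOD1 at -0.39 inside it and MYC at -0.21 outside it.

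**Figure D1:**
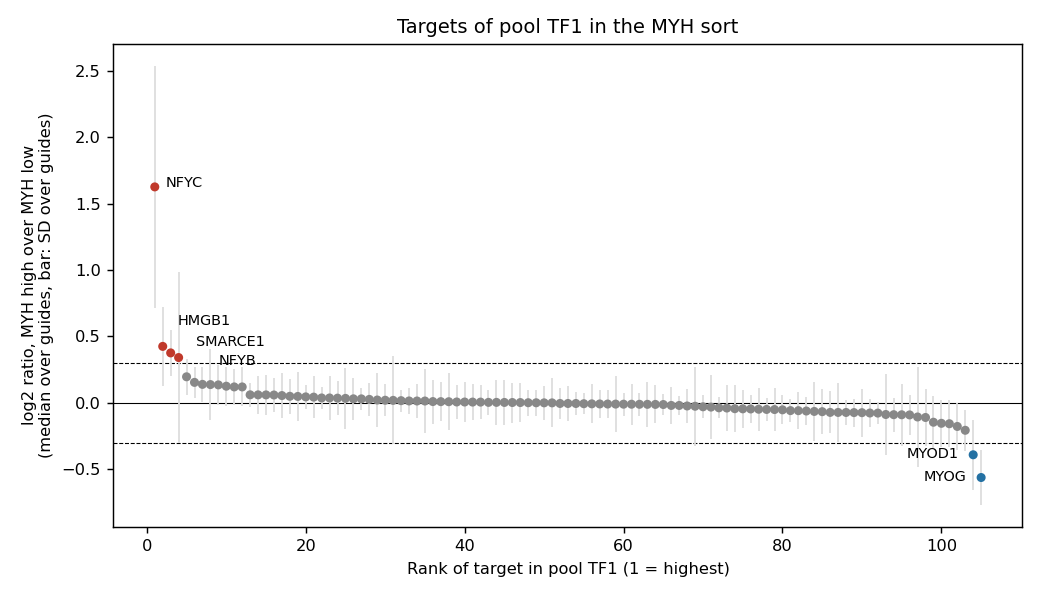
Each point is 1 of 105 targets of pool TF1, ranked by its median log2 ratio between MYH high and MYH low cells (vertical axis; above 0 is higher in MYH high), with a grey bar for the SD over its guides and dashed lines at 0.3 and -0.3. NFYC stands alone at 1.63, HMGB1, SMARCE1 and NFYB lie between 0.34 and 0.43, and MYOD1 and MYOG lie lowest at -0.39 and -0.56.

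The pool carried NFYB and NFYC, the histone-fold subunits of NF-Y, a trimeric factor that binds the CCAAT box of many promoters; no target of the pool had the name NFYA. Both were higher in MYH high cells. The 10 NFYC guides together had 19827 CPM in MYH high cells (95% exact binomial interval 19801 to 19852), against 7976 CPM in MYH low cells (7961 to 7992). These intervals cover the counting error of reads only. They treat reads as independent, but reads after PCR without molecular identifiers are not independent molecules, so the intervals can be too narrow. The median log2 ratio of NFYC was 1.63 (SD over guides 0.91), which is 3.08-fold, and 9 of 10 guides lay above 0.

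The NFYC guides lay in separate ranges. Of the 10, 6 had log2 ratios between 1.52 and 2.14, and the other 4 lay between -0.16 and 0.64. The guide with the highest ratio, sgRNA443, had 1911 CPM in MYH high cells and 477 CPM in MYH low cells. At the other end, sgRNA442 had 228 CPM in MYH high cells and 280 CPM in MYH low cells, a log2 ratio of -0.16. The median counting error of a guide in this pool, taken over reads, was 0.0067 on the log2 scale. The gap between these guides is far wider than that, but this error leaves out other spread between guides. The 10 negative-control guides of TF1 ran from -0.15 to 0.83.

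NFYB showed the same kind of spread at a lower level. Its 10 guides had 14334 CPM in MYH high cells (14312 to 14356), against 9809 CPM in MYH low cells (9791 to 9826). The median log2 ratio was 0.34 (SD 0.64), with 8 of 10 guides above 0. Only 2 of its guides reached 1, sgRNA427 at 1.71 and sgRNA435 at 1.39, and the other 8 lay between -0.16 and 0.81. With each NFYB guide left out in turn, its median was either 0.24 or 0.44. Leaving out any guide above the median gave 0.24, short of the limit, and leaving out any guide below it gave 0.44. NFYC and NFYB had the largest SDs over guides of all members, against a median SD of 0.15 over the 105.

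HMGB1 and SMARCE1 were the other members past the limit on the higher side, and both have an HMG box, a DNA-bending domain. HMGB1 is an abundant chromatin protein, and SMARCE1 is a subunit of the SWI/SNF remodelling complex. The 10 SMARCE1 guides had 13918 CPM in MYH high cells (13897 to 13940), against 11840 CPM in MYH low cells (11821 to 11858). Their median log2 ratio was 0.38 (SD 0.17), and all 10 guides lay above 0, between 0.05 and 0.58. This narrow spread sets SMARCE1 apart from the NF-Y subunits, whose medians rest on some of their guides.

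HMGB1 had only 6 guides. They had 6486 CPM in MYH high cells (6472 to 6501), against 5090 CPM in MYH low cells (5078 to 5102). The median log2 ratio was 0.43 (SD 0.30), and all 6 guides lay above 0, between 0.03 and 0.85. As background, HMGB1 has many processed pseudogenes in the human genome. Guide sequences were not used here, so whether its guides match other copies was not tested.

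MYOG had the lowest value in the pool, and it was low in every guide. Its 10 guides had 11092 CPM in MYH high cells (11073 to 11111), against 18106 CPM in MYH low cells (18083 to 18129). The median log2 ratio was -0.56 (SD 0.21), which is 0.678-fold. All 10 guides lay below 0, from -1.02 for sgRNA382 to -0.29 for sgRNA383. The most abundant MYOG guide, sgRNA385, had 3355 CPM in MYH high cells and 5453 CPM in MYH low cells, a log2 ratio of -0.56, and sgRNA380, the least abundant, had 159 CPM and 302 CPM in the same arms, a log2 ratio of -0.79. The low values were thus seen at both ends of the range of abundance.

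MYOD1 was the other member past the limit on the lower side. Its 20 guides had 9664 CPM in MYH high cells (9646 to 9682), against 13867 CPM in MYH low cells (13847 to 13887). The median log2 ratio was -0.39 (SD 0.26), which is 0.763-fold, with 19 of 20 guides below 0. The 10 guides found only in TF1 had a median of -0.48 (SD 0.19), all below 0. The 10 guides shared with the other pools had -0.33 (SD 0.31), with 9 below 0. The exception was sgRNA3203, with 64617 reads in MYH high cells and 54722 reads in MYH low cells, a log2 ratio of 0.53. That guide was also above 0 in 7 of the other 9 pools, where it ran from -0.10 to 1.19.

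**Figure D2:**
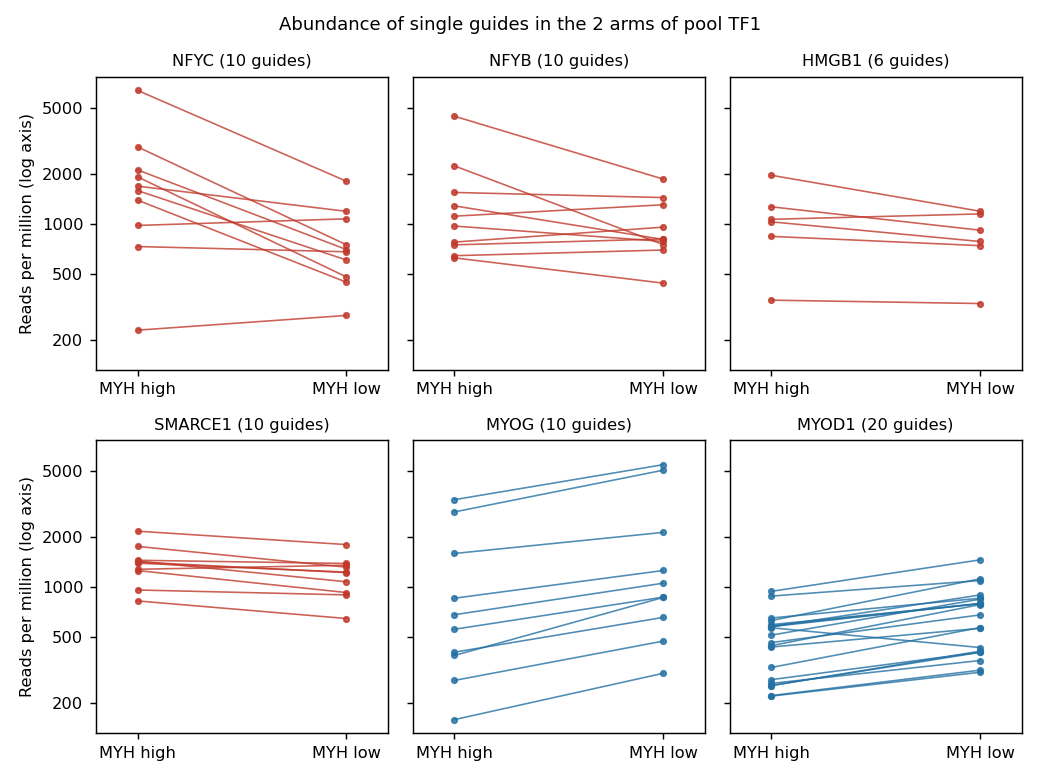
Each line is 1 guide of the 6 targets past the size limit, joining its abundance in TF1 MYH high cells (left) and TF1 MYH low cells (right) in CPM on a log axis. All 10 MYOG lines and 19 of 20 MYOD1 lines lie lower on the MYH high side, while NFYC and NFYB mix steep and flat lines.

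The list of myogenic regulators, which holds the muscle bHLH factors, their MEF2 partners and other regulators of the lineage, had 3 measured members. Of these, 0 were higher and 2 were lower past the limit, beside 3.81% higher and 1.9% lower over all 105 members. The 2 are MYOG and MYOD1, described above, and the list was written with earlier results of these data known. The list's median of -0.39 is the value of MYOD1 itself, beside -0.005 over all 105 members. The third member, MEF2B, a MADS-box partner of the muscle bHLH factors, was at -0.06 (SD 0.09). The list of E-proteins, ID and HES/HEY factors, other bHLH proteins, had 2 measured members, TCF15 at -0.009 and BHLHE41 at -0.08, both within the limit. These 2 were chosen for mention after their values were seen.

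On the lower side, MYC lay closest to the limit among members within it. Guides against MYC, a bHLH zipper factor of growth and the cell cycle, had 5902 CPM in MYH high cells (5888 to 5917), against 7458 CPM in MYH low cells (7443 to 7473). The median log2 ratio was -0.21 (SD 0.15), with 9 of 10 guides below 0. MAX, the obligate partner of MYC, was at -0.06 (SD 0.11). The guides of MYC ran from -0.48 to 0.02 and those of MAX from -0.15 to 0.17, so their ranges overlapped.

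The next lowest members were ETV2, an ETS factor of blood vessel development, at -0.18 (SD 0.18), NRF1, a regulator of nuclear genes for mitochondria, at -0.16 (SD 0.18), MAF, a basic leucine zipper factor, at -0.15 (SD 0.18), and SOX9, a regulator of cartilage fate, at -0.15 (SD 0.20). TTF1, a termination factor of RNA polymerase I, was at -0.11 (SD 0.21). PRDM12, a PR domain factor of sensory neurons, was also at -0.11 (SD 0.37), and ZPR1, a zinc finger protein, at -0.09 (SD 0.15). For ETV2, NRF1, MAF and SOX9 the SD over guides was close to the size of the value or larger.

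On the higher side, ZNF143 and SMAD4 fell short of the limit with all 10 guides of each above 0. ZNF143 is a zinc finger activator that binds many promoters, and SMAD4 is the common partner SMAD of TGF-beta and BMP signalling. The ZNF143 guides had 12718 CPM in MYH high cells and 12197 CPM in MYH low cells, with a median log2 ratio of 0.20 (SD 0.13) and single guides from 0.04 to 0.44. The SMAD4 guides had 10509 CPM in MYH high cells and 10057 CPM in MYH low cells, with a median of 0.15 (SD 0.12) and single guides from 0.03 to 0.35. FOXM1, a forkhead factor of mitotic genes, followed at 0.14 (SD 0.13), then TP73, a p53 relative, at 0.14 (SD 0.27), and MTA2, a NuRD subunit, at 0.14 (SD 0.15). FOXD4L5 was at 0.13 with 4 guides, and belongs to a group of near-identical forkhead copies. Of the other copies, FOXD4L6 was at 0.12 with 6 guides and FOXD4L1 at 0.004 with 10 guides. Whether the guides of FOXD4L5 match the other copies was not tested. FOXD4L6 and FOXD4L1 were chosen for mention after their values were seen.

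In all, 5 members had every guide above 0 (HMGB1, SMARCE1, ZNF143, SMAD4 and FOXD4L5) and 2 had every guide below 0 (MYOG and RUNX1). The lowest guides of those 5 lay between 0.02 (FOXD4L5) and 0.05 (SMARCE1), while the median guide was at -0.14 before centring. For these 5, having every guide above 0 thus depends on the centring. The control sets PAX3_non-fusion and PCNA also had every guide above 0. RUNX1, a Runt factor of blood development, was at -0.07 over 9 guides (SD 0.11), so agreement between guides did not go with a sizeable shift there.

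**Figure D3:**
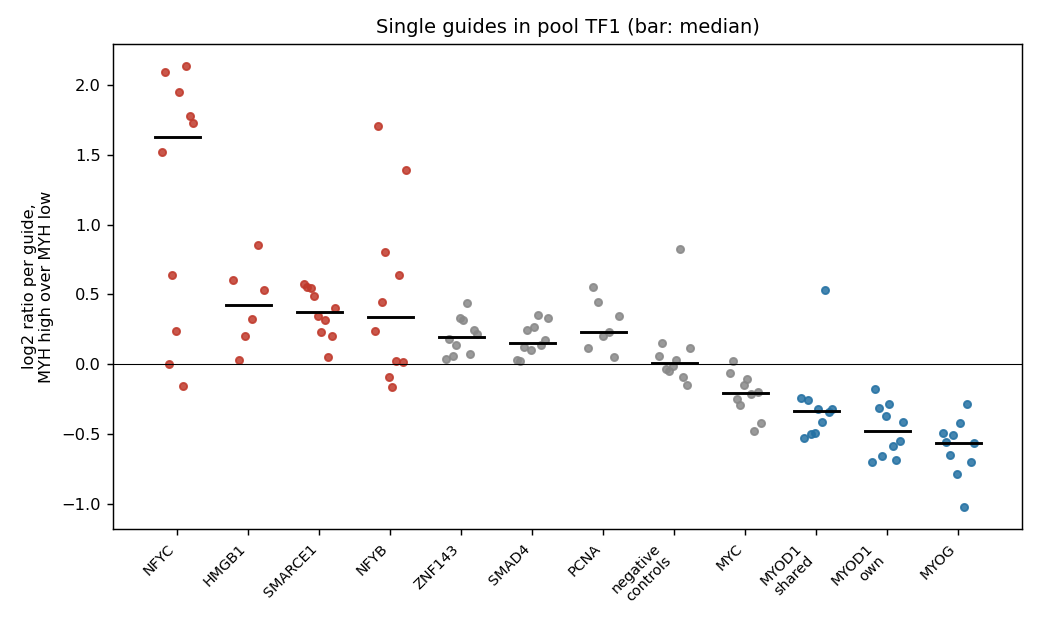
Each point is the log2 ratio between MYH high and MYH low cells of 1 guide in pool TF1 (vertical axis), with a bar at the median of each target. The MYOD1 guides that all pools carry are drawn apart from those found in TF1 alone. The NFYC guides run from -0.16 to 2.14, whereas all SMARCE1 guides lie between 0.05 and 0.58 and all MYOG guides between -1.02 and -0.29.

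The other families listed here held no member past the limit, apart from HMGB1. Lists of transcription factor families were written from background knowledge, and 8 of 23 had at least 3 measured members. Of 4 measured members of the list named AP-1 and ATF/CREB, which also holds DDIT3, 0 were past the limit and the median was -0.03. FOSL1, an AP-1 subunit, was highest at 0.04 (SD 0.08), and DDIT3, a factor of the stress response, was lowest at -0.09 (SD 0.31). Of 3 members of the E2F, RB pocket and DREAM list, which control cell cycle genes, 0 were past it, with a median of 0.002, FOXM1 highest and the repressive E2F4 lowest at -0.06. The 5 listed forkhead factors, FOXM1 again among them, had a median of -0.01, with FOXF1, a factor of mesenchyme, lowest at -0.07. FOXD4L5, FOXD4L6 and FOXD4L1 are not on that list.

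The 3 nuclear receptors had a median of 0.06, between NR2C2, an orphan receptor, at 0.06 and ESR1, the oestrogen receptor alpha, at -0.02. The 10 listed homeobox factors outside the HOX clusters had a median of -0.002, between DLX4 at 0.06 and LHX4 at -0.08. The list of SOX, TCF/LEF and other HMG box factors, which does not hold SMARCE1, had 5 members, 1 of them higher past the limit, and a median of -0.04, between HMGB1 and SOX9. The list of RUNX, GATA, GLI and SNAIL factors had 3 members, 0 past the limit and a median of -0.009, between ZIC4, a zinc finger factor, at -0.008 and RUNX1. The 12 other lists with 1 or 2 members each, NF-Y apart, held 21 members with 0 past the limit, from MYC at -0.21 to ZNF143 at 0.20. The 21 members whose symbols begin with ZNF or ZFP and a number, most of them little studied zinc finger proteins, ran from -0.09 to 0.20 with a median of 0.0008 and 0 past the limit.

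**Figure D4:**
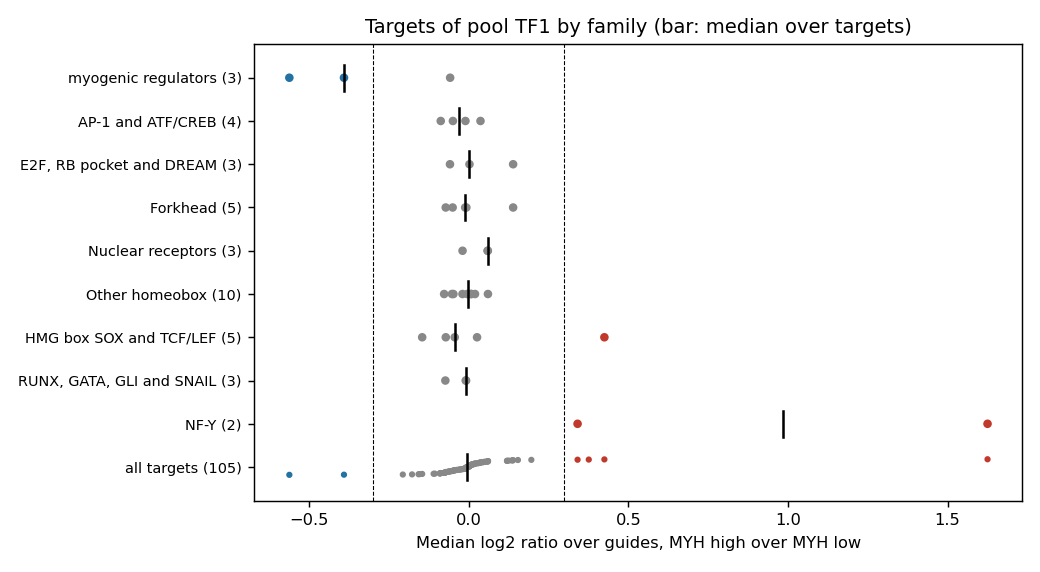
Each point is the median log2 ratio between MYH high and MYH low cells of 1 target (horizontal axis), grouped by family with the number of targets in brackets, a bar at the median of the group and dashed lines at -0.3 and 0.3. NF-Y lies wholly to the right of 0.3, 2 of 3 myogenic regulators lie to the left of -0.3, and the other families cluster at 0 with HMGB1 as the exception.

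Single guides could stand far from the rest of their target. Among the 99 members within the limit, 11 of 973 guides had a log2 ratio of 0.5 or more and 2 had -0.5 or less. The highest was sgRNA534 of PRDM12, with 545 CPM in MYH high cells and 298 CPM in MYH low cells, in a target whose median was -0.11. Guide sgRNA283 of HOXB3, a HOX factor with a target median of 0.02, was at 0.89. Guide sgRNA69 of DDIT3 was at 0.81 and sgRNA90 of DMRTA2, a DM domain factor with a target median of -0.03, at 0.79. HOXB3 and DMRTA2 were chosen for mention after their values were seen.

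The sets of guides against the PAX3-FOXO1 fusion, which serve as the positive control, had medians far above that of every member. The 10 guides of the set PAX3_Fusion_DBD had 29433 CPM in TF1 MYH high cells and 2357 CPM in TF1 MYH low cells, with a median log2 ratio of 3.84 (SD 1.08). The 11 guides of FOXO1_fusion had 45369 CPM in TF1 MYH high cells and 5314 CPM in TF1 MYH low cells, with a median of 3.35 (SD 0.94). The lowest fusion guide, sgRNA3210, was at 1.08 and the highest NFYC guide at 2.14, so single guides overlapped. All 21 fusion guides lay above 0. Together they made up 7.48% of reads in MYH high cells and 0.767% in MYH low cells. Before centring, the median log2 ratio of all guides was -0.14; how much of it comes from the share of the fusion guides was not tested. Without centring 1 member was higher past the limit, NFYC, and 4 were lower (ETV2, MYC, MYOD1 and MYOG), in place of 4 and 2; NFYB, SMARCE1 and HMGB1 were then at 0.21, 0.24 and 0.29. Values here are therefore relative to the median guide. The 10 negative-control guides had a median of 0.008 after centring (SD 0.28), and centring on them gave the same 6 members.

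Of the other controls, PAX3_non-fusion and PCNA lay above every member within the limit, the highest of which was ZNF143 at 0.20. The set PAX3_non-fusion had a median log2 ratio of 0.22 (SD 0.09), with 10 of 10 guides above 0. PCNA had 0.23 (SD 0.18), with 7 of 7 guides above 0. Of 9 guides of FOXO1_non-fusion, 8 had at most 6 reads over both arms and were left out, and the remaining guide was at -0.07.

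The shared guides were measured in 10 separate sorts and allow TF1 to be set against the other pools. The MYOD1 guides were lower in TF1 than elsewhere. Their median was -0.33 in TF1, against a mean over the other pools of 0.04 ± 0.18 (SD, n = 9 pools). The pool CF3 stood apart at 0.52. Without it the other pools had -0.01 ± 0.05 (SD, n = 8 pools), and ran from -0.08 to 0.06. Of the 10 guides, 8 were lower in TF1 than in each of the other 9 pools. The difference of -0.38 had a p of 0.2 (adjusted p of 0.9 over 6 sets) in an exact two-sided permutation test of which pool is set against the rest, where 0.1 is the smallest p that 10 pools allow. Without CF3 the difference was -0.32 with a p of 0.111 in the same exact test, the smallest that 9 pools allow. TF1 also carried 10 MYOD1 guides of its own in addition to the shared ones; the part of this in the result was not tested.

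The fusion guides were somewhat higher in TF1 than in most pools. PAX3_Fusion_DBD was at 3.84 in TF1, against 3.22 ± 0.57 in the other pools (SD, n = 9 pools), with a p of 0.3 in the exact permutation test, and TF1 ranked second. FOXO1_fusion was at 3.35 in TF1, against 2.82 ± 0.65 (SD, n = 9 pools), with a p of 0.6 in the exact permutation test. For PAX3_non-fusion TF1 had 0.22, against 0.18 ± 0.33 (SD, n = 9 pools), or 0.08 ± 0.07 without CF3 (SD, n = 8 pools), where the exact permutation p of 0.111 was the smallest possible. For PCNA it had 0.23, against 0.24 ± 0.43 (SD, n = 9 pools), or 0.10 ± 0.14 without CF3 (SD, n = 8 pools). The negative controls were at 0.008 in TF1, against 0.12 ± 0.45 (SD, n = 9 pools), or -0.03 ± 0.07 without CF3 (SD, n = 8 pools). Adjusted p-values over these 6 sets in the exact permutation test were 0.9 or 1, so no set of TF1 was told apart from the other pools by this test.

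**Figure D5:**
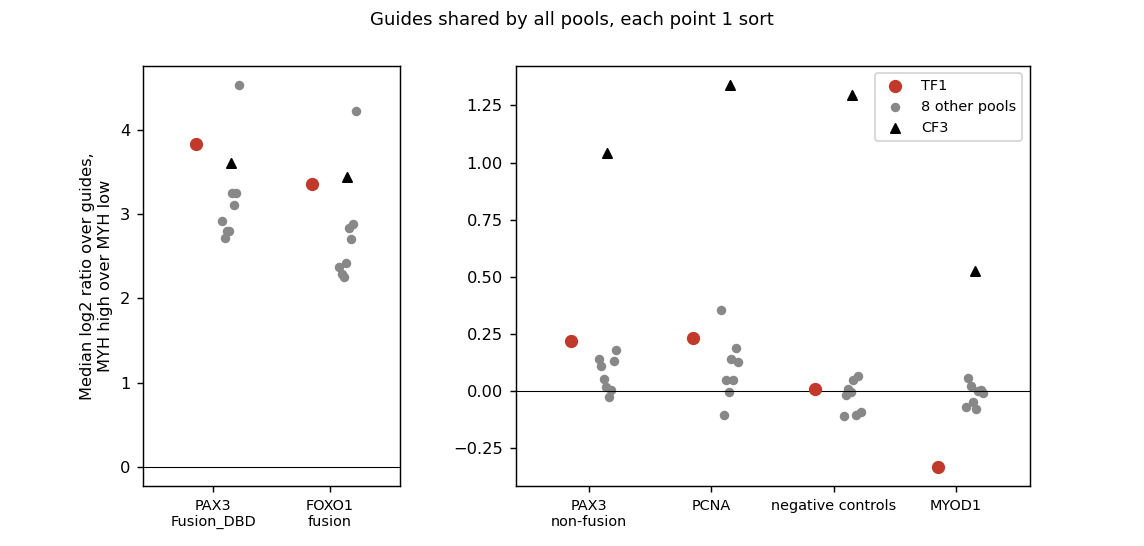
Each point is the median log2 ratio between MYH high and MYH low cells of 1 shared guide set in 1 pool (vertical axis; the fusion sets have an axis of their own), with TF1 in red, 8 other pools in grey and CF3 as a black triangle. The MYOD1 guides of TF1, at -0.33, lie below all other pools, which run from -0.08 to 0.06 apart from CF3 at 0.52.

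The targets of TF1 were also spread more widely than those of the other pools. MYOD1 was counted as a target in TF1 only, where it is among the lower members, and was left out of the other pools. The SDs and percentages below are therefore over unlike sets of targets, and the part of MYOD1 in the difference of SDs was not tested. The SD of target medians was 0.20 in TF1, against 0.11 ± 0.03 in the other pools (SD, n = 9 pools), which ran from 0.06 to 0.15. TF1 ranked highest, with a p of 0.1 in the exact two-sided permutation test over pools, the smallest that 10 pools allow. The width rests on NFYC, and without it the SD in TF1 was 0.12. Of the other transcription factor pools, TF2 had 0 of 108 targets past the limit, and TF3 had 1.85% higher and 0.926% lower, against 3.81% and 1.9% in TF1. Among all other pools KP2 came closest to TF1 on the higher side, with 3.06% higher and 1.02% lower. On the lower side TF1 did not stand out, since CF2 had 1.92% lower and CF3 1.89%. The lower members of TF1 were MYOG and MYOD1, so with MYOD1 left out as in the other pools only MYOG would remain. Over the other 9 pools 1.25% of 879 targets were higher past the limit and 0.683% were lower.

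Other guides against the same gene were available in another pool for 6 members. ARID2, a SWI/SNF subunit, was at 0.06 (SD 0.09) in TF1 and 0.08 (SD 0.16) in CF2. E2F6, a repressive E2F factor, was at 0.002 (SD 0.15) in TF1 and -0.003 (SD 0.20) in CF1. MAX was at -0.06 in TF1 and -0.08 (SD 0.26) in CF3. Relative to the median guide, the negative controls were at 0.008 in TF1 but at 1.30 in CF3. The closeness of the MAX values in these pools therefore does not show a like result. PRDM12 was at -0.11 in TF1 and -0.14 (SD 0.14) in DR2. FOXF1 was at -0.07 (SD 0.22) in TF1 and 0.02 (SD 0.07) in DR2, and ZZZ3, a subunit of the ATAC acetyltransferase complex, at -0.07 (SD 0.09) in TF1 and -0.01 (SD 0.12) in CF1. Every one of the 6 lay within 0.11 of 0 in TF1, so none of the members past the limit had a second measurement of this kind. The shared MYOD1 guides were in every pool, but there they were the same guides sorted again. Their medians in the other pools ran from -0.08 to 0.52, so none of those pools had MYOD1 past the limit on the lower side.

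A score named beta stands beside every target in the authors' deposited table. Across the 105 members its Spearman correlation with the medians given here was 0.86 in the authors' deposited table; targets share both libraries and are not independent replicates. In the authors' deposited table the highest betas among members were 0.837 for NFYC, 0.345 for NFYB, 0.295 for HMGB1 and 0.259 for SMARCE1. The lowest there were -0.414 for MYOG, -0.264 for MYOD1 and -0.148 for MYC. At a rate of 0.05 in its column fdr, the authors' deposited table holds 1 higher member, NFYC, and 3 lower ones, MYC, MYOD1 and MYOG. In the same column, NFYB has 0.286, SMARCE1 0.538 and HMGB1 0.931 in the authors' deposited table. At 0.05 in its Wald column the authors' deposited table holds 0 higher members and 2 lower ones, MYOD1 and MYOG. The positive controls do not pass in that column of the authors' deposited table either. There PAX3_Fusion_DBD has a beta of 2.58 with a Wald rate of 0.832, and FOXO1_fusion a beta of 2.19 with 0.716. The table was made from 1 sample per arm, so its rates compare these libraries and not repeats of the experiment.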

How the data were processed

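Guides were read by sequencing PCR products of genomic DNA, per the labels' protocols. The authors deposited a whole-number read count for every guide. The submitters' processing notes name MAGeCK and FastQC; their versions and settings: not given in the sources used here. A deposited table of the authors' model holds a score (beta), p-values and false discovery rates by target; on which logarithm beta is built was not found in its header. Guide sequences were not used here.

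Guides with under 10 reads over both arms were left out (8 of 1096). Log2 ratios used a pseudocount of 1 CPM and were centred on the median of all guides; a target needed 3 guides. With 1 sample per arm, a size limit of 0.3 replaces a test. Shared sets were defined by their TF1 labels in all 10 pools and tested by exact permutation over pools, adjusted by Benjamini-Hochberg. Intervals are exact binomial (Clopper-Pearson). Named genes were the 10 highest and 10 lowest targets, all past the limit, the 3 with the largest SD over guides, members of the myogenic and NF-Y lists, targets carried by another pool, the shared controls and the extremes of each list with 3 members. Members, lists and the alternatives (centring, minimum, pseudocount, summary, size limit, guide share, leaving out guides or pool CF3) were chosen with earlier results of these data known. The procedure was tested on simulated counts in which all guides of a changed target shared the same effect apart from noise. Those effects were larger in size than the medians of HMGB1, SMARCE1, NFYB and MYOD1. The simulated guides also spread less than those of NFYC and NFYB, so the simulation does not bear on targets like these. All 105 target names matched a current RefSeq symbol (GRCh38.p14). Python 3.11.15, numpy 2.4.6, pandas 2.3.3, scipy 1.17.1 and matplotlib 3.10.9 were used.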

Additional observations from a re-analysis of the deposited data

Results flagged for a closer look

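Within the 10 pools, CF3 stood far above the others in 4 shared guide sets that served as the comparison for TF1: PAX3_non-fusion at 1.04, PCNA at 1.34, the negative controls at 1.30 and MYOD1 at 0.52, where the nearest other pools had 0.22, 0.35, 0.07 and 0.06. With CF3 left out, TF1 itself stood far from the other 8 pools for the MYOD1 guides, at -0.33 against the nearest value of -0.08. The gap that marks such a value is meant as one that chance gives in about 1 in 20 groups. Whether that rate holds for medians of these pools was not tested. The 13 groups examined are not independent, since 4 of these 5 values come from CF3 and 6 of the groups repeat others without it, so their number says nothing about chance.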

How the results depend on the processing

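The counts of 4 higher and 2 lower members depended on the centring and the size limit. Without centring they were 1 and 4, and at a limit of 0.5 they were 1 and 1 (NFYC and MYOG). At a limit of 0.2 MYC joined the lower members. They were the same 6 members with the other centrings, minimums, pseudocounts and summaries, with at least 80% of guides on the same side, and with MYOD1 from its own guides. The medians of NFYC ran from 1.19 to 1.73 over the alternatives, of HMGB1 from 0.29 to 0.53, of SMARCE1 from 0.24 to 0.40, of NFYB from 0.21 to 0.68, of MYOD1 from -0.53 to -0.37 and of MYOG from -0.70 to -0.55. Small differences between TF1 and the other pools changed sign. For PAX3_non-fusion the difference of 0.03 became -0.0082 without centring and -0.00039 with the mean over guides. For PCNA the difference of -0.005 became 0.11 when centred on the negative controls, 0.032 with the mean, 0.040 with summed CPM and 0.13 without CF3. For the negative controls the difference of -0.11 became 0.034 without CF3. The cause was not tested. No paired analysis was possible because the labels give 1 sample per arm and no replicate numbers. The counting error of a guide had a median of 0.0067 and a maximum of 0.37 on the log2 scale, and 8 of 9 FOXO1_non-fusion guides had too few reads to be used.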

Other observations

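The negative-control guide sgRNA3239 lay farthest from 0 among the 10 negative controls of TF1, at 0.83, with 69339 reads in MYH high cells and 47798 in MYH low cells. Over the other 9 pools its log2 ratio ran from -2.51 in DR1, with 131002 reads in MYH high cells and 142694 in MYH low cells, to 4.43 in CF1, with 1065604 and 42300 reads in the same arms. The other 9 negative-control guides lay between -0.15 and 0.15 in TF1.

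The fusion guides of TF1 differed widely among themselves. Guide sgRNA3209 of PAX3_Fusion_DBD had 948 CPM in MYH high cells and 37.6 CPM in MYH low cells, a log2 ratio of 4.76, the highest in the pool. Guide sgRNA3210 of the same set had 66.0 CPM in MYH high cells and 33.9 CPM in MYH low cells, a log2 ratio of 1.08, the lowest of the 21 fusion guides.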
